A study of Caenorhabditis elegans with 2 samples.

Results

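Binding of the tagged protein B0310.2 was examined at 10 chaperone and unfolded protein response genes of the nematode Caenorhabditis elegans, out of 19973 protein-coding genes on the 6 nuclear chromosomes. Of the 10 genes, 4 had a peak of the authors' optimal list at the promoter, beside 1.86% of all protein-coding genes. The 4 were hsp-1, hsp-3, hsp-60 and xbp-1. The other 6 genes were hsp-4, hsp-6, hsp-110, ire-1, hsf-1 and atfs-1. Promoter summits in these same region lists were known when the genes were chosen, so their peaks, signals and ranks are given as a description without a test. A gene was given every region whose summit, the position of the region's maximum, was within 1000 bp before or 300 bp after an annotated transcript 5′ end.

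The chromatin came from whole early embryos, males and females pooled, collected 0 hours after synchronization by bleaching eggs out of adults. The strain, OP642, carries the mutation unc-119(tm4063) and the transgene wgIs642, which makes B0310.2 with GFP and FLAG at its C-terminal end. The labels do not say which promoter drives the transgene or whether the untagged B0310.2 gene is intact. Sonicated chromatin was precipitated with an antibody to GFP in 2 biological replicates of this 1 group, so there was no untagged, mutant or stressed group to compare with. Each region's value is a signal whose scale is not stated, so regions were compared by rank within a list, where rank 1 is the strongest.

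Cells answer misfolded proteins with separate programmes for each compartment. In the cytosol and nucleus, the heat shock factor HSF-1 drives genes of Hsp70, Hsp110, Hsp90 and small heat shock proteins. In the endoplasmic reticulum (ER), the membrane kinase and ribonuclease IRE-1 splices the xbp-1 mRNA, and the transcription factor XBP-1 that results drives ER chaperones such as the BiP proteins HSP-3 and HSP-4. In mitochondria, ATFS-1 is normally imported and degraded, and when import fails it enters the nucleus and drives the mitochondrial chaperones HSP-6 and HSP-60. The set holds 6 chaperone genes and 4 regulators, with 3 genes in the cytosolic branch, 4 in the ER branch and 3 in the mitochondrial branch.

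The DNA at the 4 peaks is shown because the genes differ in what lies under the summit. The sequences are of the RefSeq genome of WBcel235, the sequence of build ce11, and each reads 5′ to 3′ along the strand of the gene. For hsp-1 and hsp-60 the stretch is centred on the summit. For xbp-1 it reaches from before the summit to the last base ahead of the transcript, and for hsp-3, whose summit is the first transcribed base, it is the sequence just upstream. Capitals mark words searched on both strands, so a word may stand as its reverse complement. They are AGAGCG and the related AGCGCG, the heat shock element core GAANNTTC, the XBP-1 type core TGACGTG, the box known as CCAAT, and the cAMP response element word TGACGTCA.

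hsp-1 (chrIV:17278507-17278657, plus strand): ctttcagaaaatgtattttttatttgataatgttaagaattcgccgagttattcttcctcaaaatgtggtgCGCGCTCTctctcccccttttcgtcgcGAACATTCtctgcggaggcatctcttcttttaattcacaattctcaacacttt
hsp-3 (chrX:6092125-6092274, minus strand): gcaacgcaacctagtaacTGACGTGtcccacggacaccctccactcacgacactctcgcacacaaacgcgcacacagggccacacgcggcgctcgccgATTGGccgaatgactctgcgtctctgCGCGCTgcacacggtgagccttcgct
hsp-60 (chrIII:1619056-1619206, plus strand): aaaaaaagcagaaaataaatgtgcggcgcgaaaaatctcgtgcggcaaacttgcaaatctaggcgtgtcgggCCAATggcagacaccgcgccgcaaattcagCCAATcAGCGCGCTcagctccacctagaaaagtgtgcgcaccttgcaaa
xbp-1 (chrIII:4193679-4193808, plus strand): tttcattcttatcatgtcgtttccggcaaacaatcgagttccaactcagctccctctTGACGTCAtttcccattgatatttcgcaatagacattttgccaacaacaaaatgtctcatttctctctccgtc

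In the hsp-1 sequence, the run CGCGCTCT joins AGCGCG and AGAGCG on the opposite strand, and the AGAGCG letters lay from -2 to 3 bp of the summit. A GAANNTTC word followed at 23 to 30 bp. In the hsp-60 sequence, AGCGCGCT holds AGCGCG on both strands, at 33 to 40 bp from the summit, and CCAAT stands at -3 to 1 bp and again at 27 to 31 bp. In the hsp-3 sequence, AGCGCG lay from -26 to -21 bp of the summit. The xbp-1 sequence holds neither of the 6-base words, and TGACGTCA lay from -18 to -11 bp of its summit.

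AGCGCG thus stood within 50 bp of 3 of the 4 peak summits, against 9.5% of the 642 optimal summits, at promoters or elsewhere. AGAGCG stood at 1 of the 4, against 14.5% of the 642. Both words had been picked out earlier from these same peaks, so their presence there is not independent of the data. GAANNTTC was at 2.8% of the 642 summits, CCAAT at 15.4%, TGACGTG at 0.779% and TGACGTCA at 0.779%. Only 298 of the 642 are promoter summits, and none of these shares was taken over promoter summits alone. TGACGTCA was added to the search after the xbp-1 sequence had been seen. The presence of a word describes these letters and does not show which factor is bound.

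All 4 peaks were 476 bp wide, which is the median width in both the optimal and the pooled list. Counted as a share, promoter peaks of the optimal list were found at 4 of the 10 genes, and at 1.86% of all protein-coding genes. This contrast chose the genes, so nothing is read from the difference. The list's 642 peaks are the 642 strongest regions of the list made from both replicates' pooled alignments, with signals between 139.6 and 1118.3. The weakest of the 4 peaks, at hsp-60, had a signal of 176.5. Among the genes left outside the list, the strongest promoter-window region, at hsp-4, had 103.7.

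hsp-1 (WBGene00002005, chrIV:17278959-17281330, plus strand) encodes the constitutive Hsp70 of the cytosol, the general folding chaperone of the compartment. Its peak (chrIV:17278344-17278819) had a signal of 198.6 and was rank 281 of the pooled list. Replicate 1 placed the same region at rank 182 with a signal of 74.4, and replicate 2 placed it at rank 329 with a signal of 129.6. The summits in the replicates were 3 bp apart, at -378 bp in replicate 1 and -375 bp in replicate 2 from the only annotated 5′ end (negative is upstream), and the pooled summit was at -377 bp. A weaker pooled region, rank 15468, had its summit at -154 bp and was seen in replicate 2 at rank 4782 but not in replicate 1. A noncoding RNA gene, F26D10.23, lay 80 bp from the pooled summit on the same strand as hsp-1.

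hsp-110 (WBGene00016250, chrIII:8443910-8446909, minus strand) encodes the Hsp110 partner that exchanges nucleotide on Hsp70. Its strongest pooled region in the promoter window was rank 1948 with a signal of 98.9. The summit lay in a coding exon, 214 bp downstream of the 5′ end. A region with its summit at -25 bp was weaker, at rank 4696 with a signal of 78.2. The replicates put these regions in opposite order. Replicate 1 had the upstream summit first (-34 bp, rank 3047) and the coding summit after it (217 bp, rank 5818), while replicate 2 had the coding summit first (239 bp, rank 1901) and the upstream summit after it (-25 bp, rank 9007). The pooled summit also lay in the promoter window of rpn-3, which encodes a regulatory subunit of the proteasome and starts on the other strand, with the summit at -658 bp of its 5′ end. Within hsp-110 but outside the window, each list held a stronger region. Its rank was 1460 in the pooled list (signal 106.4), 2437 in replicate 1 and 1860 in replicate 2.

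hsp-3 (WBGene00002007, chrX:6089028-6092124, minus strand) and hsp-4 encode the paired BiP proteins, Hsp70 chaperones of the ER lumen. The hsp-3 peak (chrX:6091886-6092361) had a signal of 186.8 and was rank 320. Its ranks in the replicates, 331 in replicate 1 with a signal of 60.3 and 315 in replicate 2 with a signal of 132.3, were the closest pair of the 4 genes. The summits were less close, with -168 bp in replicate 1 and -7 bp in replicate 2, which is 161 bp apart and the widest of the 4. The pooled list divided the same stretch into overlapping regions, the peak with its summit at 0 bp and a second at -200 bp of rank 903. Of the 3 annotated 5′ ends of hsp-3, the peak was at the most upstream.

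hsp-4 (WBGene00002008, chrII:7350112-7352645, minus strand) is the BiP gene most used as a reporter of ER stress in worms. Its strongest pooled region was rank 1628 with a signal of 103.7 and a −log10 q of 1.13, and its summit lay in the 5′ UTR, 40 bp downstream of the 5′ end of 1 of its 3 transcripts and 167 bp downstream of the first. Replicate 2 had it at rank 2003 and at 36 bp. Replicate 1 had its strongest hsp-4 region at rank 4060, 194 bp downstream in coding sequence. A region upstream of the first 5′ end was at rank 22345 of the pooled list, at -48 bp. hsp-3 was thus ranked above hsp-4 in all 3 lists, and the strongest summit lay at or before the first 5′ end in all 3 lists at hsp-3 and after it in all 3 at hsp-4.

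The sequence just upstream of hsp-4 is shown for comparison with that of hsp-3, since both stretches hold a TGACGTG word and the peak is at hsp-3 alone.

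hsp-4 (chrII:7352646-7352795, minus strand): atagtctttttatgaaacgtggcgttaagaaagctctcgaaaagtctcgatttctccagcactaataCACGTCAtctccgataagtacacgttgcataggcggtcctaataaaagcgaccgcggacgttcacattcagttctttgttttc

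The word starts at -83 bp of the hsp-4 first 5′ end, where it reads CACGTCA, and at -132 bp of that of hsp-3. In the window from 500 bp before to 100 bp after the first 5′ end, 3 of the 10 genes held TGACGTG, the remaining one being hsp-110 at 72 bp, against 5.4% of all protein-coding promoters. None of the 3 had the word within 50 bp of its strongest pooled summit. AGCGCG was found in the hsp-4 window too, at 77 bp, downstream of the printed stretch.

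xbp-1 (WBGene00006959, chrIII:4193809-4195358, plus strand) encodes the bZIP transcription factor of the ER response. Its peak (chrIII:4193516-4193991) was the strongest of the 10 genes in the pooled list, rank 235 with a signal of 215.6. The replicates differed in rank more than at the other 3 peaks. Replicate 2 had rank 203 with a signal of 166.1, and replicate 1 had rank 756 with a signal of 47.0, which is outside its strongest 642. The summit was at -55 bp in the pooled list and at -63 bp in replicate 1, and it fell inside the 5′ UTR in replicate 2, 4 bp downstream of the nearer 5′ end and 16 bp downstream of the first. A second overlapping region followed at 144 bp from the first 5′ end, at rank 941 of the pooled list and rank 1951 of replicate 1, and the nearest to it in replicate 2, at 217 bp, was at rank 22358. The upstream gene dnj-16, which encodes a J domain protein on the same strand, ends before the summit, and its nearest 5′ end is 2206 bp away.

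ire-1 (WBGene00002147, chrII:8112243-8124910, minus strand), the sensor upstream of xbp-1, had no region in the promoter window in any list. The nearest pooled summit to its first 5′ end was at -2188 bp, with rank 8535, and the nearest were at -2183 bp in replicate 1 and at -2283 bp in replicate 2. Over the whole gene and 1000 bp before it, a stretch of 13668 bp, the pooled list held 1 region, of rank 9809.

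hsp-60 (WBGene00002025, chrIII:1619742-1625803, plus strand) encodes the chaperonin of the mitochondrial matrix. Its peak (chrIII:1618893-1619368) had a signal of 176.5 and was rank 356. Replicate 1 had it at rank 313 with a signal of 61.2 and replicate 2 at rank 401 with a signal of 118.4. The summit was at -611 bp of the first 5′ end in the pooled list, -675 bp in replicate 1 and -601 bp in replicate 2, the farthest of the 4 peaks. It was nearer to another gene. Y22D7AL.10 (WBGene00021248, chrIII:1617151-1618929) runs the other way, and the pooled summit was at -202 bp of its 5′ end. RefSeq names its product as the 10 kDa mitochondrial heat shock protein, and a protein of that class caps the Hsp60 barrel. The peak therefore lies between the divergent genes of both partners of the mitochondrial chaperonin, and under a rule that gives a summit to its nearest gene it belongs to Y22D7AL.10. Further hsp-60 regions in the window of the internal 5′ end lay in introns and exons before and after it. Their ranks were between 6307 and 16497 in the pooled list, and the best in replicate 1 was rank 2135 with a signal of 37.1. Over the whole gene and 1000 bp before it, the pooled list held 10 regions, the peak included.

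hsp-6 (WBGene00002010, chrV:4824124-4826760, minus strand) encodes the Hsp70 of the mitochondrial matrix. Its only pooled region was at rank 25852 of 30000, with a signal of 42.1 at -120 bp. Replicate 1 had 2 regions there, at -347 bp with rank 3548 and at -26 bp with rank 3749, and replicate 2 had none in the window, its nearest being at -1815 bp with rank 21175. The pooled summit also fell in the window of C37H5.5, a gene on the other strand, at -480 bp of its 5′ end.

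atfs-1 (WBGene00013878, chrV:14193663-14197700, plus strand) encodes the bZIP regulator of the mitochondrial response and has 5 distinct annotated 5′ ends. Its strongest pooled region was rank 3228 with a signal of 86.7, in an intron 294 bp downstream of an internal 5′ end and 1077 bp downstream of the first. Replicate 2 had it at rank 3718. In replicate 1 the strongest region over the gene, at rank 4307, lay 1187 bp downstream of the first 5′ end and outside every window, and the best inside a window was rank 18321. No list had an atfs-1 region upstream of the first 5′ end within the window.

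hsf-1 (WBGene00002004, chrI:11953507-11963085, minus strand) encodes the regulator of the cytosolic response. Its region in the promoter window had its summit at -33 bp of the first 5′ end in the pooled list. The summit was at -26 bp in replicate 1 and -32 bp in replicate 2, so its place varied by a few bases. The rank of that region was low in every list. It was 13563 in the pooled list at a signal of 55.9, 21271 in replicate 1 at 18.8 and 20041 in replicate 2 at 33.9. Stronger regions lay within the gene outside the window, with best ranks of 8241 in the pooled list, 11589 in replicate 1 and 6839 in replicate 2.

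**Figure D1:**
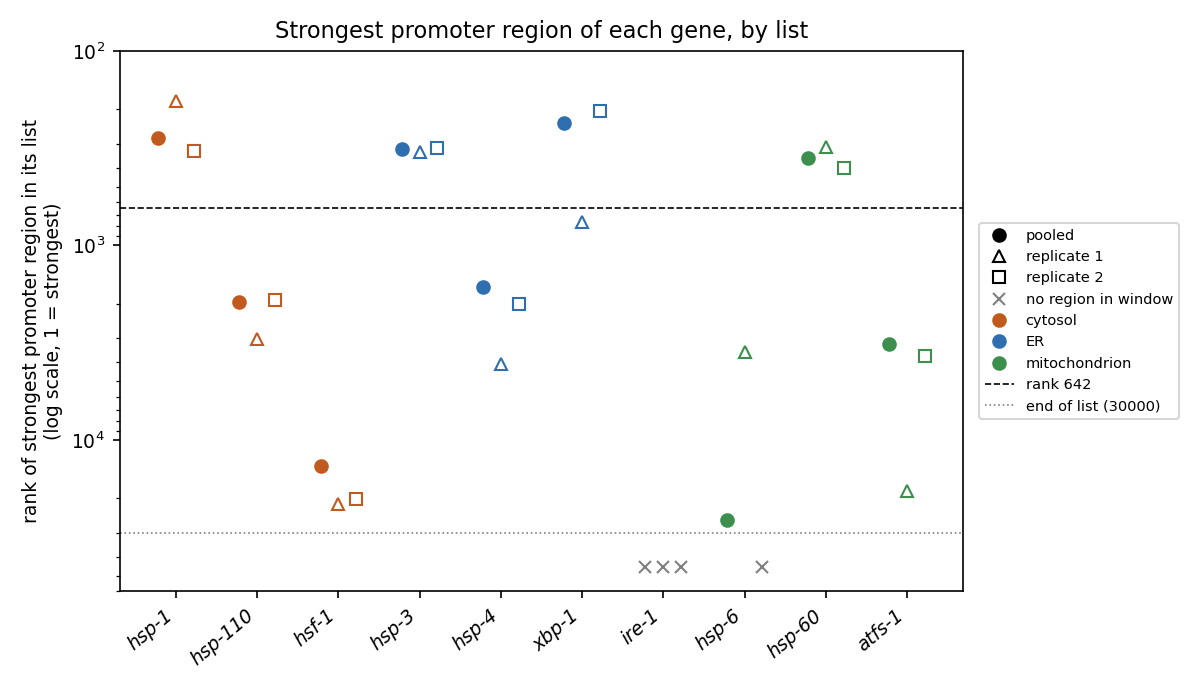
Rank of the strongest promoter-window region of each of the 10 genes (vertical axis, log scale, rank 1 at the top) in the pooled list (filled circles), replicate 1 (triangles) and replicate 2 (squares), coloured by compartment. hsp-1, hsp-3 and hsp-60 lie above the dashed line at rank 642 in all 3 lists and xbp-1 in 2 of them, while crosses mark that ire-1 has no region in any list and hsp-6 none in replicate 2.

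To set the genes against the genome, all 19973 protein-coding genes were put in order of their strongest promoter region in each list. In the pooled list xbp-1 was at place 133 (the top 0.666%), hsp-1 at 164 (0.821%), hsp-3 at 187 (0.936%) and hsp-60 at 211 (1.06%). hsp-4 followed at 839 (4.2%) and hsp-110 at 979 (4.9%), then atfs-1 at 1465 (7.33%), hsf-1 at 4288 (21.5%) and hsp-6 at 6909 (34.6%). In replicate 1 the first 4 were hsp-1 at place 92, hsp-60 at 154, hsp-3 at 165 and xbp-1 at 354. In replicate 2 they were xbp-1 at 114, hsp-3 at 188, hsp-1 at 195 and hsp-60 at 236. The same 4 genes led in both replicates, and the order among them differed between replicates, so no order is claimed within the 4. The windows of genes with several 5′ ends are longer and can hold more regions. They spanned 1301 bp for hsp-1, hsp-110 and hsp-6, as for the median gene, and up to 3385 bp for atfs-1.

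Looser and single-replicate lists gave these counts. Among the top 642 regions of replicate 1, 3 of the 10 genes had a promoter summit, against 1.52% of all genes, and among the top 642 of replicate 2, 4 had, against 1.91%. xbp-1 was the gene missing from replicate 1. Among the top 2000 regions of the pooled list, hsp-4 and hsp-110 joined the 4, making 6 of 10 against 4.99% of all genes, and among the top 5000 atfs-1 made 7, against 10.1%. With all 30000 regions the counts were 9 of 10 in the pooled list against 38.4% of all genes, 9 of 10 in replicate 1 against 38.0%, and 8 of 10 in replicate 2 against 38.5%. The full lists include background regions, per the deposited descriptions, so a listed region outside the optimal list is not by itself a called peak. This holds for the regions of hsp-4, hsp-110, atfs-1, hsf-1 and hsp-6. Their pooled −log10 q values were 1.13, 0.96, 0.63, 0.14 and 0.04 in that order, and the lowest in the optimal list was 1.991.

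**Figure D2:**
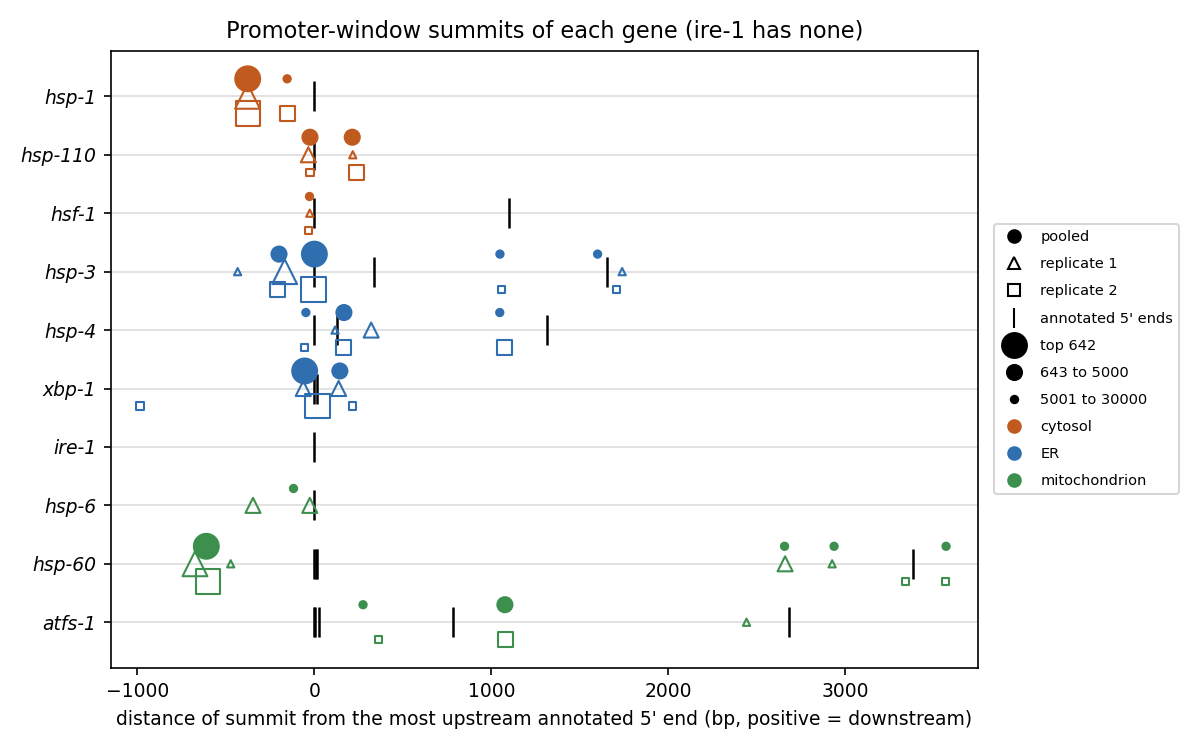
Distance of each promoter-window summit from the gene's most upstream annotated 5′ end (horizontal axis, bp, positive is downstream) for the 10 genes, with black ticks at annotated 5′ ends and symbol size by rank class. The large symbols of hsp-1 and hsp-60 stand upstream of the first 5′ end and those of hsp-3 and xbp-1 at or beside it, and the second 5′ end of ire-1, at 9965 bp, is beyond the axis.

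The summits of the 4 peaks lay at 0 bp for hsp-3, -55 bp for xbp-1, -377 bp for hsp-1 and -611 bp for hsp-60. Over all 371 genes with an optimal promoter peak, the median was -282 bp, with quartiles of -536 and -147.5 bp, and for 334 of the 371 the summit was upstream of the 5′ end. xbp-1 and hsp-3 were nearer to the 5′ end than that middle range, hsp-60 was farther, and hsp-1 was within it. The 371 include genes whose peak is near a small RNA gene. With peaks within 200 bp of a tRNA, snoRNA, snRNA or miRNA gene left out, 295 genes remained, and no median offset was taken over these alone. Annotated 5′ ends in worms can be sites where a spliced leader was joined to the mRNA, downstream of where transcription began. The letters AG, as at a 3′ splice site, stand just before the first annotated 5′ end of hsp-1, hsp-60, hsp-6, hsp-110 and hsf-1, which are 5 of the 10 genes. They stand there in 27.6% of all protein-coding genes and in 41.8% of the 371. Among the 371, the median summit was at -301 bp from the first 5′ end where AG was present (155 genes) and at -194 bp where it was not (216 genes). The letters alone do not show that an mRNA is trans-spliced.

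Base composition also differed among the peaks. Within 50 bp of the summit, 61.4% of bases were G or C at hsp-3, 59.4% at hsp-60, 48.5% at hsp-1 and 40.6% at xbp-1. The median over the 298 optimal promoter summits was 49.5%, with quartiles of 43.6% and 54.5%, so hsp-3 and hsp-60 were above and xbp-1 below the middle range. Over the promoter windows from 500 bp before to 100 bp after the first 5′ end, AGAGCG was found at 3 of the 10 genes against 12% of all promoters and AGCGCG at 3 against 8.67%. GAANNTTC was found at 5 against 34.2%, CCAAT at 6 against 71.7% and TGACGTCA at 1 against 3.12%. hsp-60 held none of the 6 words in that window, since its summit and the words beside it lie farther upstream. GAANNTTC was present at hsp-1, hsp-110, hsp-4, xbp-1 and hsp-6, and of these only hsp-1 had it within 50 bp of its strongest pooled summit.

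**Figure D3:**
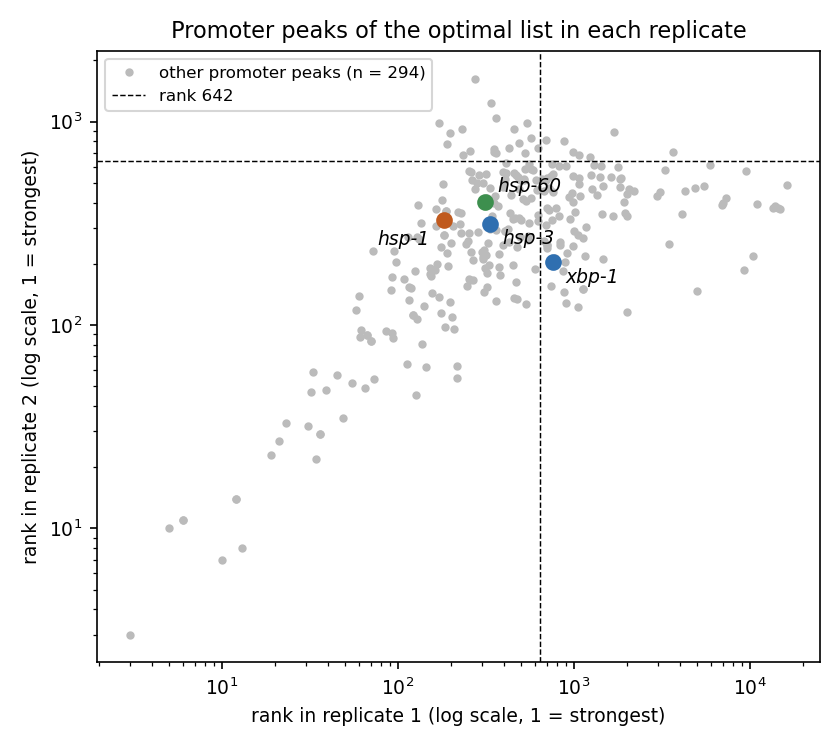
Rank in replicate 1 (horizontal, log scale) and replicate 2 (vertical, log scale) of the 298 promoter peaks of the optimal list, with the 4 genes' peaks coloured by compartment. Each peak is placed by the best ranked region that overlaps it in that replicate, which neighbouring peaks can share. The peaks of hsp-1, hsp-3 and hsp-60 lie inside the strongest 642 of both replicates, and that of xbp-1 is at rank 756 in replicate 1.

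The 4 peaks were compared with all 298 promoter peaks of the optimal list for how the replicates placed them. Each peak was given the best ranked region of each replicate that overlapped it. Some neighbouring peaks among the 298 therefore share a replicate region, so their values are not all separate. Summits of the replicates were a median of 76.5 bp apart over the 4 peaks, from 3 bp at hsp-1 to 161 bp at hsp-3, and 34.5 bp over the 298, whose largest was 380 bp. Of the 4, 3 were among the strongest 642 regions of both replicates, as were 60.1% of the 298. By replicate, 3 of the 4 and 66.4% of the 298 were in the strongest 642 of replicate 1, and 4 of the 4 and 91.3% of the 298 in those of replicate 2. The rank was better in replicate 1 for hsp-1 and hsp-60, and in replicate 2 for xbp-1 and hsp-3. By signal the 4 peaks were in the middle of the 298, with xbp-1 at place 101, hsp-1 at 125, hsp-3 at 146 and hsp-60 at 166.

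By compartment, the optimal list had 1 of 3 cytosolic genes (hsp-1), 2 of 4 ER genes (hsp-3 and xbp-1) and 1 of 3 mitochondrial genes (hsp-60). The share of all protein-coding genes was 1.86%. In the top 5000 of the pooled list there were 2 of 3, 3 of 4 and 2 of 3, beside 10.1% of all protein-coding genes. In the pooled list each branch thus held a gene in the strongest 642. Each also held a gene outside its top 5000 or with no region, namely hsf-1, ire-1 and hsp-6. In replicate 1, hsp-6 was inside the top 5000 at rank 3548, and atfs-1 was outside it at rank 18321. Among the chaperones, 3 of 6 had an optimal peak and 5 of 6 were in the pooled top 5000. Among the regulators the counts were 1 of 4 and 2 of 4, beside the same 1.86% and 10.1% of all genes. With 3 or 4 genes in a branch, these counts do not separate the branches or the roles. No branch had peaks at all of its genes. In the cytosol hsp-1 had a peak, and hsf-1 and hsp-110 did not. In the ER xbp-1 and hsp-3 had peaks, and ire-1 and hsp-4 did not. In the mitochondrial branch hsp-60 had a peak, and atfs-1 and hsp-6 did not.

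The wider pathways were read from a list of 95 genes, of which 85 are not among the 10. Optimal promoter peaks were found at 7 of the 85 (8.24%), resting on 6 distinct peaks, against 1.86% of all protein-coding genes. The list left out Y22D7AL.10, whose window holds the hsp-60 peak, and was drawn up with earlier results of these data known. It had peaks at 4 of 47 further cytosolic genes, 2 of 25 further ER genes and 1 of 13 further mitochondrial genes. No tRNA, snoRNA, snRNA or miRNA gene lay within 200 bp of these summits or of those of the 10 genes, the nearest to a summit of the 10 being a snoRNA gene 1464 bp from that of hsp-1.

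In the cytosol, the best ranked peak was shared by F44E5.4 and F44E5.5, a divergent pair of heat-inducible Hsp70 genes. It was rank 150 in the pooled list, with a signal of 257.3, rank 125 in replicate 1 and rank 184 in replicate 2. The genes are near-identical copies, and the handling of reads that align to both is not described in the sources used here, so this value is uncertain. bag-1, which encodes a nucleotide exchange factor of Hsp70, had a peak of rank 476 with ranks of 351 and 730 in replicates 1 and 2. dnj-13, which encodes an Hsp40 partner of Hsp70, had a peak of rank 596, with 557 and 620 in the replicates. With hsp-1, optimal peaks were at 3 of 7 listed Hsp70, Hsp110 and Hsp90 genes and 2 of 11 cochaperone genes, against 1.86% of all protein-coding genes. Those without a peak included hsp-110, daf-21, dnj-12, sti-1 and unc-23. There was no optimal peak at any of 14 small heat shock protein genes, 14 chaperonin and prefoldin genes and 4 heat shock regulators, and with so few genes the same share of 1.86% would leave most such groups at 0, so these counts do not set them apart. The shared region of hsp-16.2 and hsp-16.41, which encode small heat shock proteins, was at rank 2748, and daf-21, which encodes Hsp90, was at rank 3976.

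In the ER, cdc-48.1 had the best pooled rank, 164, with a signal of 248.4. It encodes an ATPase that pulls misfolded proteins out of the ER for degradation. Its replicates differed, with rank 1985 in replicate 1 and rank 116 in replicate 2. pdi-2, which encodes a protein disulfide isomerase, was close behind at rank 182 with a signal of 240.9, and at 167 and 200 in replicates 1 and 2. xbp-1 came next at 235. atf-6, which encodes another ER stress sensor and transcription factor, was outside the optimal list at rank 748, and enpl-1, which encodes the ER Hsp90, was at rank 935. pek-1, which encodes the remaining ER stress sensor, was at rank 3540. Of the 3 sensor genes, ire-1 was thus without a region, and atf-6 and pek-1 had regions outside the optimal list. The other listed cdc-48 gene, cdc-48.2, had no optimal peak and was at rank 14726.

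In the mitochondrial list, jmjd-1.2 had a peak of rank 278 with a signal of 199.5, at rank 678 in replicate 1 and rank 258 in replicate 2. It encodes a histone demethylase that acts in the mitochondrial unfolded protein response. hsp-60 came next at 356 and atfs-1 after it at 3228. Some region of the pooled list was found at 34 of 50 cytosolic, 20 of 29 ER and 14 of 16 mitochondrial genes, beside 38.4% of all protein-coding genes. A region of its top 5000 was found at 16 of 50, 14 of 29 and 3 of 16, beside 10.1% of all. The difference between compartments was not tested.

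**Figure D4:**
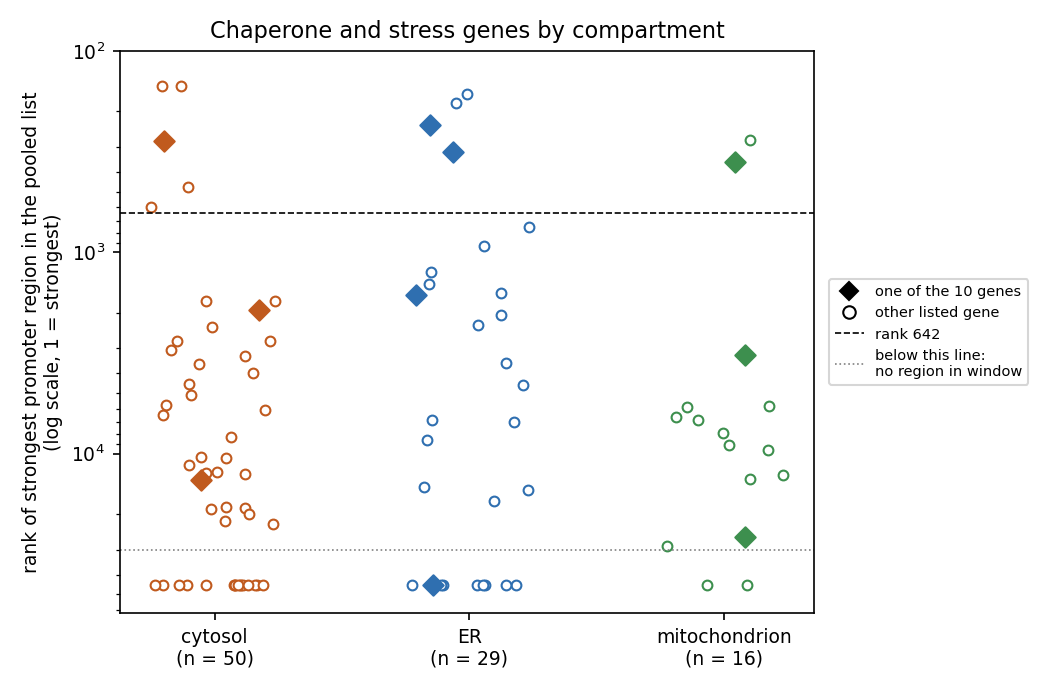
Rank of the strongest promoter-window region in the pooled list (vertical axis, log scale, rank 1 at the top) for the 95 listed genes by compartment, with diamonds for the 10 genes and open circles for the others; horizontal scatter is for display. Of the 95 genes, 11 lie above the dashed line at rank 642, and points below the dotted line had no region in the window.

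Across the series, each replicate list and the pooled list held 30000 regions, with median signals of 21.7 in replicate 1, 38.2 in replicate 2 and 53.9 in the pooled list. With no read counts in the deposited lists, sequencing depth is unknown, and a missing region at ire-1 or hsp-6 says only that none was listed. The transgene's own source gene, B0310.2, and the selection gene unc-119 had best pooled ranks of 1013 and 5022 over the gene and 1000 bp before it, so neither was in the optimal list.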

How the data were processed

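Anti-GFP ChIP-seq was given as region lists of 2 replicates labelled as biological, of 1 group. Per the deposited descriptions, the authors made a list of peaks and background from each replicate's alignment with a control alignment, a pooled list, and an optimal list thresholded on the irreproducible discovery rate. The deposited lists give each region a signal, of unstated scale, and a −log10 q, which was used only to describe regions. The sources used here do not give the caller, aligner, versions, threshold or handling of multiply aligned reads. Depth is unknown, so no interval could be given.

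The ce11 lists were annotated with Ensembl release 115 and the RefSeq WBcel235 genome, since all 90642 regions lay within its chromosome lengths. The ce10 lists were not used here and no coordinate was converted. Regions were ranked by signal. A summit counted for every protein-coding gene with a transcript 5′ end 1000 bp downstream to 300 bp upstream of it. Offsets are negative upstream of the nearest 5′ end, and coordinates are 1-based. Genes were ordered by their strongest promoter region. No test was run. The rule named all 10 genes, each other listed gene with an optimal peak, the 3 best ranked per compartment, genes whose windows share a summit, and small RNA genes within 200 bp. dnj-16, F26D10.23, hsp-16.2, hsp-16.41, daf-21, dnj-12, sti-1, unc-23, atf-6, enpl-1, pek-1 and cdc-48.2 were named after their values were seen. The members and lists were chosen with earlier results of these data known. Python 3.11.15, pandas 2.3.3 and pysam 0.24.0 were used, and the assignment of summits to genes was tested on simulated data. Alternatives were other windows, stricter and looser lists, each replicate alone and other rules for giving a summit to a gene.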

Additional observations from a re-analysis of the deposited data

How the results depend on the processing

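The count of 4 genes with a promoter peak, beside 1.86% of all protein-coding genes, stayed within 1.5 times under 11 of 12 alternatives. Under these 11 the share of all genes ran from 0.941% (stronger part of the optimal list) to 4.99% (pooled top 2000). The count moved to 7 with the top 5000 regions of the pooled list, beside 10.1% of all genes. With each replicate's own strongest regions it was 3 without replicate 2, beside 1.52%, and 4 without replicate 1, beside 1.91%. The gene lost without replicate 2 was xbp-1. hsp-60 was lost with a window of 500 bp upstream to 100 bp downstream, with the stronger part of the optimal list (321 peaks) and where a summit counted for its nearest gene only. xbp-1 was lost where peaks had to be in the strongest 642 of both replicates. The xbp-1 summit passed to the other side of its first 5′ end without replicate 1, at 16 bp against -55 bp in the pooled list. That summit was 4 bp downstream of the nearer 5′ end. Without replicate 2 the xbp-1 summit was at -63 bp. The strongest summit also changed side at hsp-110, where the pooled 214 bp became -34 bp without replicate 2. It was at -25 bp in the narrower window, which ends 100 bp downstream and so cannot hold the summit at 214 bp. At atfs-1 the pooled 294 bp became -239 bp without replicate 2, a different region near another 5′ end. The cause of the changes seen without a replicate was not tested. Ranks and offsets of the other genes gave no value in some settings: hsp-6 has no region in the window without replicate 1, atfs-1 none in the narrower window, and ire-1 none in any. No paired analysis was possible because there is 1 group. Signal has no stated scale and the lists hold no read counts, so how far depth limits the weaker regions, such as those of hsf-1 and hsp-6, is unknown.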
